A study of Caenorhabditis elegans with 18 samples.

Results

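Caenorhabditis elegans hermaphrodites carry a set of genes that act in sperm besides the msp genes of the major sperm protein. 58 such genes were taken from the 46253 genes of the deposited tables by name. They are all genes named spe, ssp, ssq, sss or nspd with a number, plus gsp-3, gsp-4 and fer-1. Expression did not enter this naming rule, though the genes were chosen with earlier results of these data known. Of the 58, 54 had enough reads to be tested among 16006 genes in all.

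The worms were wild-type N2, the standard laboratory strain, and were collected whole. Every group came from starved first-stage larvae placed at 30 to 50 per plate on OP50 bacteria and grown at 20 °C, and males and delayed worms were picked off before harvest. Exposed worms grew on plates spread with ascr#10, an ascaroside pheromone secreted mainly by males, at 2.2 fg per 60 mm plate or 1.1 fg per 35 mm plate. Control plates had water. There were 6 groups of 3 samples: water and ascr#10 at 50 h after synchronisation, the same pair at 58 h, and the 58 h pair collected and sequenced a second time. The 50 h worms and the first 58 h worms form the first collection, collection 1, and the repeated 58 h worms the second, collection 2. Titles and descriptions, which put 6 samples at 50 h, were followed, although 1 field of the labels has 58 h throughout. The study's title concerns the egg-forming germline and how a male pheromone affects its quality. The comparisons its layout implies are exposure at each age and age in each exposure.

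In C. elegans the hermaphrodite germline forms sperm during the last larval stage and then switches to oocytes, and the sperm are kept in the spermatheca until they are used up by fertilisation. Most sperm transcripts are made in spermatocytes, since the compacted sperm nucleus is silent. Sperm genes act in steps: a transcription programme in spermatocytes, assembly of the fibrous body-membranous organelles that carry sperm proteins, activation of the round spermatid into a crawling spermatozoon, and binding to and fusion with the oocyte. The ssp, ssq, sss and nspd names denote families of small sperm-enriched or nematode-specific proteins with largely unassigned functions.

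Total counts were 25.6 to 32.9 M reads per sample in collection 1 and 54.3 to 72.3 M in collection 2. Age set the samples apart most, and the lowest correlation between samples of 1 group was 0.991 on log2 CPM (counts scaled to the normalised library size). On the first principal component, the axis of largest variation, 50 h samples had negative and 58 h samples positive values. Exposed samples had higher values than water samples in each setting. For replicate 1 these were -146 in water and -136 in ascr#10 at 50 h. At 58 h they were 55.7 and 79.8 in collection 1, and 65.1 and 80.7 in collection 2. The part of this shift in the sperm gene results was not tested. Ribosomal RNA genes took 2.28% of the reads of ascr#10 replicate 2 at 50 h and 0.346% to 0.99% elsewhere, so counts of genes at 50 h are given with and without that sample. Samples are whole worms and levels are relative to all RNA counted. Fewer sperm or spermatocytes, less RNA per cell and more RNA from other cells therefore cannot be told apart. Samples are described as independent in the labels, without saying what was separate, so each p-value rests on the variation among these samples, which may be technical.

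Per unit length, transcripts of the small families made up most of the sperm signal. At 50 h in water the 12 nspd genes summed to 3248 ± 41.4 TPM (transcript level scaled for length and depth, mean ± SD, n = 3), the 12 ssp genes to 1432 ± 40.8, the 4 ssq genes to 683 ± 20.4 and the 2 sss genes to 226 ± 6.86. The 13 activation and maturation genes summed to 206 ± 2.44 TPM, the 6 organelle, trafficking and cytoskeleton genes to 105 ± 2.00, and the 5 fertilisation genes to 7.76 ± 0.611. Neighbours in this order differed by more than their SD. The highest single genes were nspd-2 at 675 TPM, nspd-7 at 633, nspd-1 at 439 and ssp-9 at 429. Among the scarcest was spe-42, needed for fertilisation, at 1.05 TPM. All 58 genes summed to 5992 ± 28.9 TPM in water and 5795 ± 36.5 in ascr#10 at 50 h. At 58 h the sums were 821 ± 14.98 and 586 ± 10.5 TPM in collection 1, and 885 ± 10.2 and 670.2 ± 7.22 in collection 2, and the 3 exposed samples lay below the 3 water samples in each of the 3 settings. 4 genes were not tested: spe-29 (36 counts over the 18 samples), the pseudogene nspd-11 (52 counts), and nspd-8 and the pseudogene nspd-12, both listed at 0 in every sample. nspd, ssp and ssq genes and the pair gsp-3 and gsp-4 are alike in sequence, so reads may have been split between copies, and single members of these are uncertain.

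**Figure D1:**
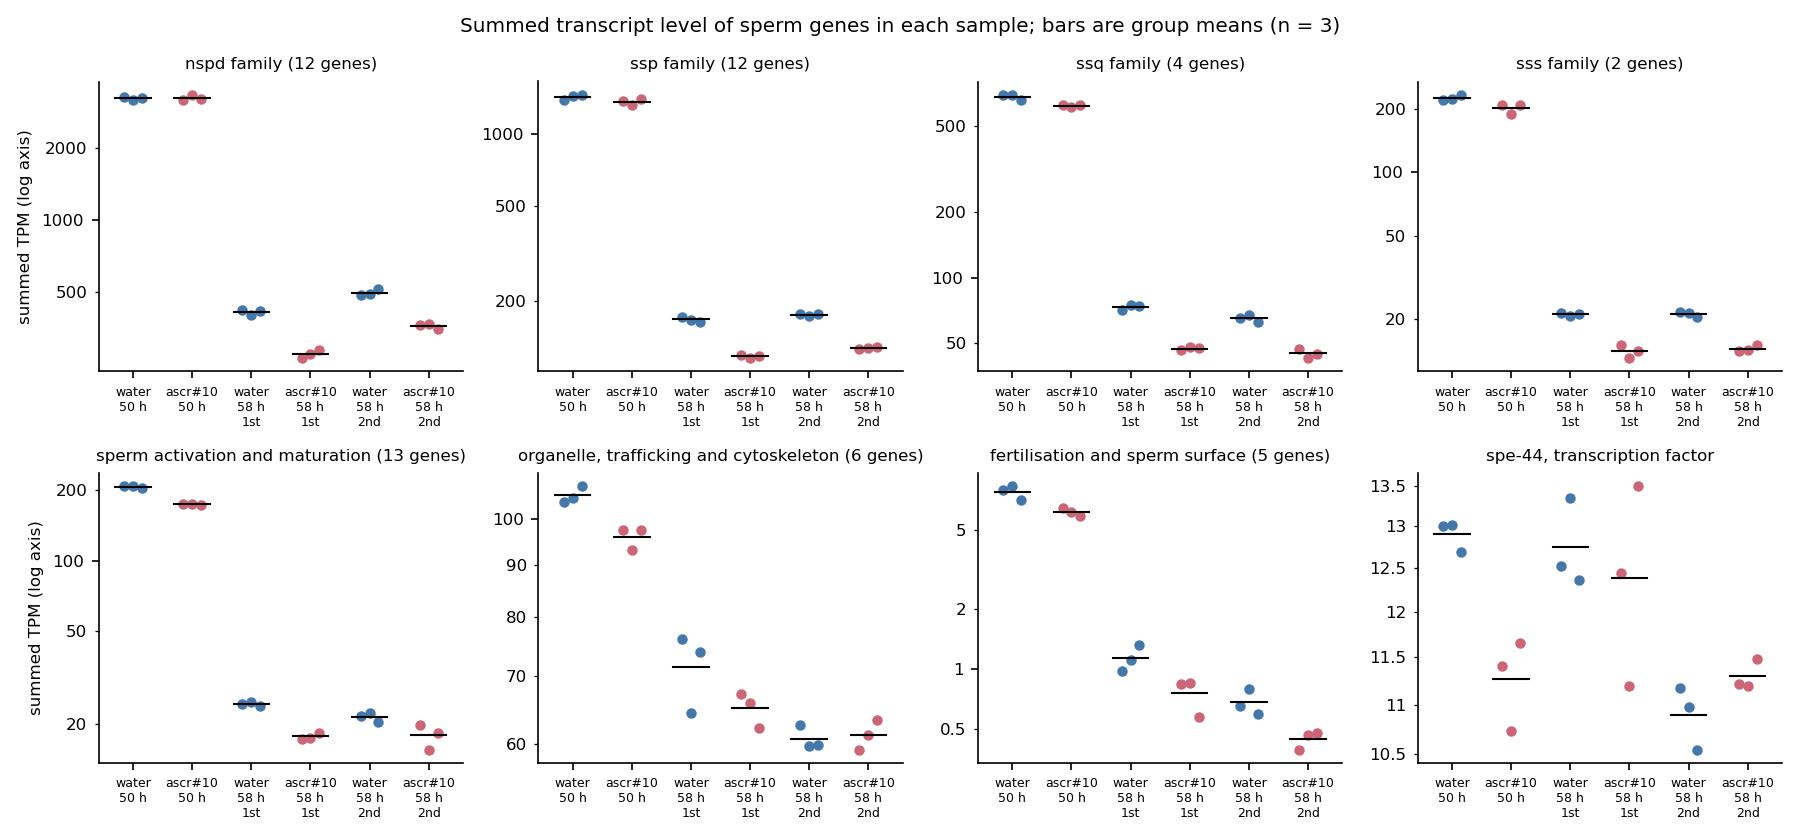
Summed TPM (log axis) of 8 sets of sperm genes in each of the 18 samples, by exposure, age and collection (1st, 2nd); points are samples and bars are means of 3. Most sets fell steeply between 50 h and 58 h, and in the 4 small families each exposed sample of 58 h lay below the water samples of its collection, while spe-44 had group means of 10.9 to 12.9 TPM.

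Sperm transcripts were far scarcer at 58 h than at 50 h. In water, 50 of the 54 tested genes were lower at 58 h than at 50 h in collection 1, the collection that holds both ages, 2 were higher (spe-48 and spe-39) and 2 did not pass (spe-44 and ssp-37), against 79.9% of all genes called, 42.4% lower and 37.5% higher. The median log2 fold change was -3.21, a level 0.108 times that at 50 h, against -0.10 over all tested genes. In ascr#10 worms 50 were lower and 2 higher, against 80.9% of all genes called, 43.9% lower and 37% higher, and the median was -3.70, against -0.13 over all genes. 10 of the 54 genes reached the count minimum at 50 h alone and had to differ. Among the other 44, 40 were lower and 2 higher in each exposure, with medians of -3.18 in water and -3.72 in ascr#10. On log2(TPM + 1) the median of all genes in ascr#10 lay at 0.0002 in place of -0.13, and the median of the sperm genes at -3.02. The water samples enter 1 age comparison and the exposed samples the other, so the 2 age comparisons share no samples.

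In water the median log2 fold change with age was -3.11 for 9 nspd genes, -3.30 for 12 ssp genes, -3.28 for 4 ssq genes, -3.41 for 12 activation genes and -3.31 for 5 fertilisation genes. 4 of these 5 fertilisation genes, 3 of the 12 activation genes and 2 of the 12 ssp genes are among the 10 that reached the count minimum at 50 h alone. The largest fitted values in water were those of ssp-32, spe-27, sss-2, ssp-33 and ssp-16, of which ssp-32 and spe-27 are among the 10 and had to differ, so they are given as a description with no test. For ssp-32 the counts in the water samples were 32, 88 and 57 at 50 h and 0, 1 and 2 at 58 h, a ratio of 52.5 (exact 95% counting interval 17.7 to 257). spe-27, needed for sperm activation, had 2.32 ± 0.0970 CPM at 50 h and 0.101 ± 0.110 at 58 h (mean ± SD, n = 3). sss-2, annotated as a pseudogene, went from 57.7 ± 1.65 to 2.89 ± 0.140 CPM (-4.32 ± 0.084, adjusted p = 6.32e-44). ssp-33 had a log2 fold change of -3.91 ± 0.19 (SE, adjusted p = 1.76e-25) and ssp-16 one of -3.90 ± 0.12 (SE, adjusted p = 4.06e-35). In ascr#10 the largest were sss-2 (-4.73), spe-10 (-4.70) and ssp-16 (-4.39), with adjusted p-values of at most 5.67e-22, beside spe-49 (-4.46) and spe-27 (-4.37), which are among the 10.

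A few genes did not follow. spe-39, which encodes a vesicle-trafficking protein used in many tissues, rose by 0.31 ± 0.035 (SE, adjusted p = 1.97e-11) on the log2 scale in water and by 0.21 ± 0.035 (SE, adjusted p = 3.79e-07) in ascr#10. spe-48 rose by 0.40 ± 0.053 (SE, adjusted p = 1.55e-09) and 0.57 ± 0.053 (SE, adjusted p = 2.82e-14). spe-5, a subunit of the vacuolar proton pump, changed by -0.24 ± 0.075 (SE, adjusted p = 0.0037) in water and -0.14 ± 0.076 (SE, adjusted p = 0.0924) in ascr#10. ssp-37 had -0.14 ± 0.14 (SE, adjusted p = 0.338) in water and -0.50 ± 0.14 (SE, adjusted p = 0.000884) in ascr#10. spe-6, a casein kinase that holds back activation until it is due, fell too, with -1.59 ± 0.081 (SE, adjusted p = 9.72e-25) and -1.26 ± 0.080 (SE, adjusted p = 1.25e-20). spe-44, which encodes a SAND-domain transcription factor of spermatocytes, had -0.10 ± 0.059 (SE, adjusted p = 0.109) in water, a value that passed under upper-quartile scaling (adjusted p = 0.011) and at a mean CPM of 1 or more (0.0148). In ascr#10 its difference was 0.010 ± 0.059 (SE, adjusted p = 0.875), with a sign that turned under upper-quartile scaling (-0.049) and with genes of a mean CPM of 1 or more (-0.026), and it passed as higher on TPM (adjusted p = 0.044 and 0.0446).

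**Figure D2:**
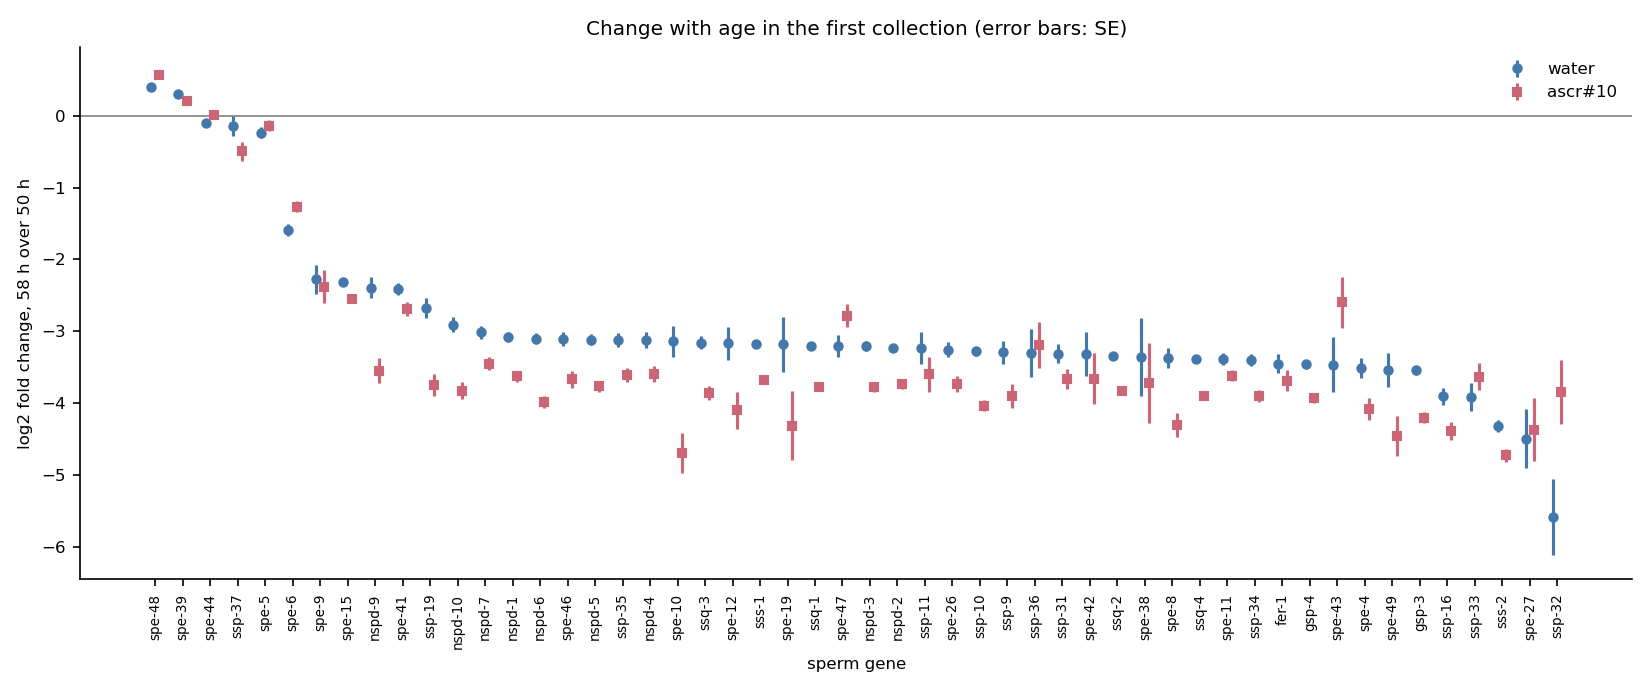
Log2 fold change from 50 h to 58 h in collection 1 for 52 of the 54 tested sperm genes, in water (circles) and ascr#10 (squares), with error bars of 1 SE, ordered by the value in water. From spe-9 rightwards every gene fell by more than 2 log2 units, and most squares lie below their circles. Genes that reached the count minimum at 50 h alone and had to differ, such as ssp-32 and spe-27, are plotted with the others.

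At 50 h ascr#10 lowered few of these genes. 8 of 54 were lower in ascr#10 and 0 higher, 14.8% against 12.9% of all genes called, 5.2% lower and 7.7% higher, with a median log2 fold change of -0.10 against -0.0023 over all genes. The median was -0.064 without water replicate 2 and -0.076 without ascr#10 replicate 2. By edgeR's unadjusted p under 0.05, 17 were lower and 3 higher, and DESeq2 called 7 lower and 0 higher. The 8 were spe-9, spe-47, fer-1, spe-46, spe-41, spe-6, gsp-3 and ssq-4. 5 of them are activation and maturation genes, of which 12 were tested. 0 of 9 nspd genes (median 0.086) and 0 of 12 ssp genes (median 0.022) passed in edgeR's test, and by unadjusted p 2 nspd genes and 1 ssp gene were higher and 0 lower. Those medians were 0.038 and 0.015 without ascr#10 replicate 2, and -0.025 and -0.048, below 0, on log2(TPM + 1). On that scale the median of all genes lay lower still, at -0.059 in place of -0.0023. All 3 exposed samples lay below all 3 water samples for 19 of 54 genes (35.2%), and for 15.2% of all genes. The count fell from 8 to 5 without water replicate 1, without ascr#10 replicate 2, the sample rich in ribosomal RNA, or without ascr#10 replicate 3.

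At 58 h ascr#10 lowered most of them. Over both collections 36 of 54 genes were lower in ascr#10 and 0 higher, against 25.5% of all genes called, 13.7% lower and 11.8% higher. By unadjusted p, edgeR gave 39 lower and 3 higher, and DESeq2 called 36 lower and 2 higher. The median log2 fold change was -0.48, a level of 0.716 times that in water, and 0.00048 over all genes. Each collection gave its own count from samples it did not share: 25 lower and 0 higher in collection 1, against 8.05% of all genes called, 5.22% lower and 2.84% higher. In collection 2 the count was 30 lower and 2 higher, against 31.7% of all genes called, 16.4% lower and 15.3% higher. In collection 1 unadjusted p gave 36 lower and 0 higher, and DESeq2 25 and 0. 21 genes were lower in both, 84% of those of the first and 70% of those of the second, and 43 of 54 (79.6%) had a negative value in both. Over all 16006 genes, 431 were lower in both, 51.6% of those of the first and 16.5% of those of the second, and 29.8% had a negative value in both. The medians were -0.53 and -0.42. No overlap, with all exposed samples below all water samples, held for 30 genes (55.6%, and 12.5% of all genes) in collection 1 and for 32 (59.3%, and 21.5%) in collection 2. The log2 fold changes of the 2 collections had a Pearson correlation of 0.368 over the 54 genes, given as a description.

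By family, all 9 nspd genes were lower over both collections, with log2 fold changes of -0.85 to -0.38, and so were all 4 ssq genes (-0.70 to -0.49) and both sss genes (-0.57 and -0.52). 8 of 12 ssp genes were lower, with a median of -0.44. 7 of 12 activation and maturation genes, 3 of 6 organelle, trafficking and cytoskeleton genes, 1 of 5 fertilisation genes, spe-11 and spe-41 were lower too. The largest called values were spe-10 (-1.03), spe-49 (-1.03), ssp-11 (-0.96), nspd-9 (-0.85) and spe-8 (-0.79). Within collection 1 they were spe-10 (-1.75), nspd-9 (-1.16), spe-8 (-1.01), nspd-10 (-0.89) and ssp-19 (-0.87). Within collection 2 they were spe-38 (-2.26), ssp-11 (-1.39), ssp-34 (-0.62), ssq-3 (-0.61) and sss-2 (-0.60). The call of ssp-19 in collection 1 was lost without water replicate 2 (adjusted p = 0.061) or ascr#10 replicate 1 (0.0605). spe-38, a tetraspan sperm protein needed for fertilisation, had 7, 14 and 3 counts in water and 1, 0 and 3 in ascr#10 in collection 2, a fitted -2.26 ± 0.70 (SE, adjusted p = 0.0109) that no longer passed without water replicate 2 or ascr#10 replicate 2, or on log2(TPM + 1).

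**Figure D3:**
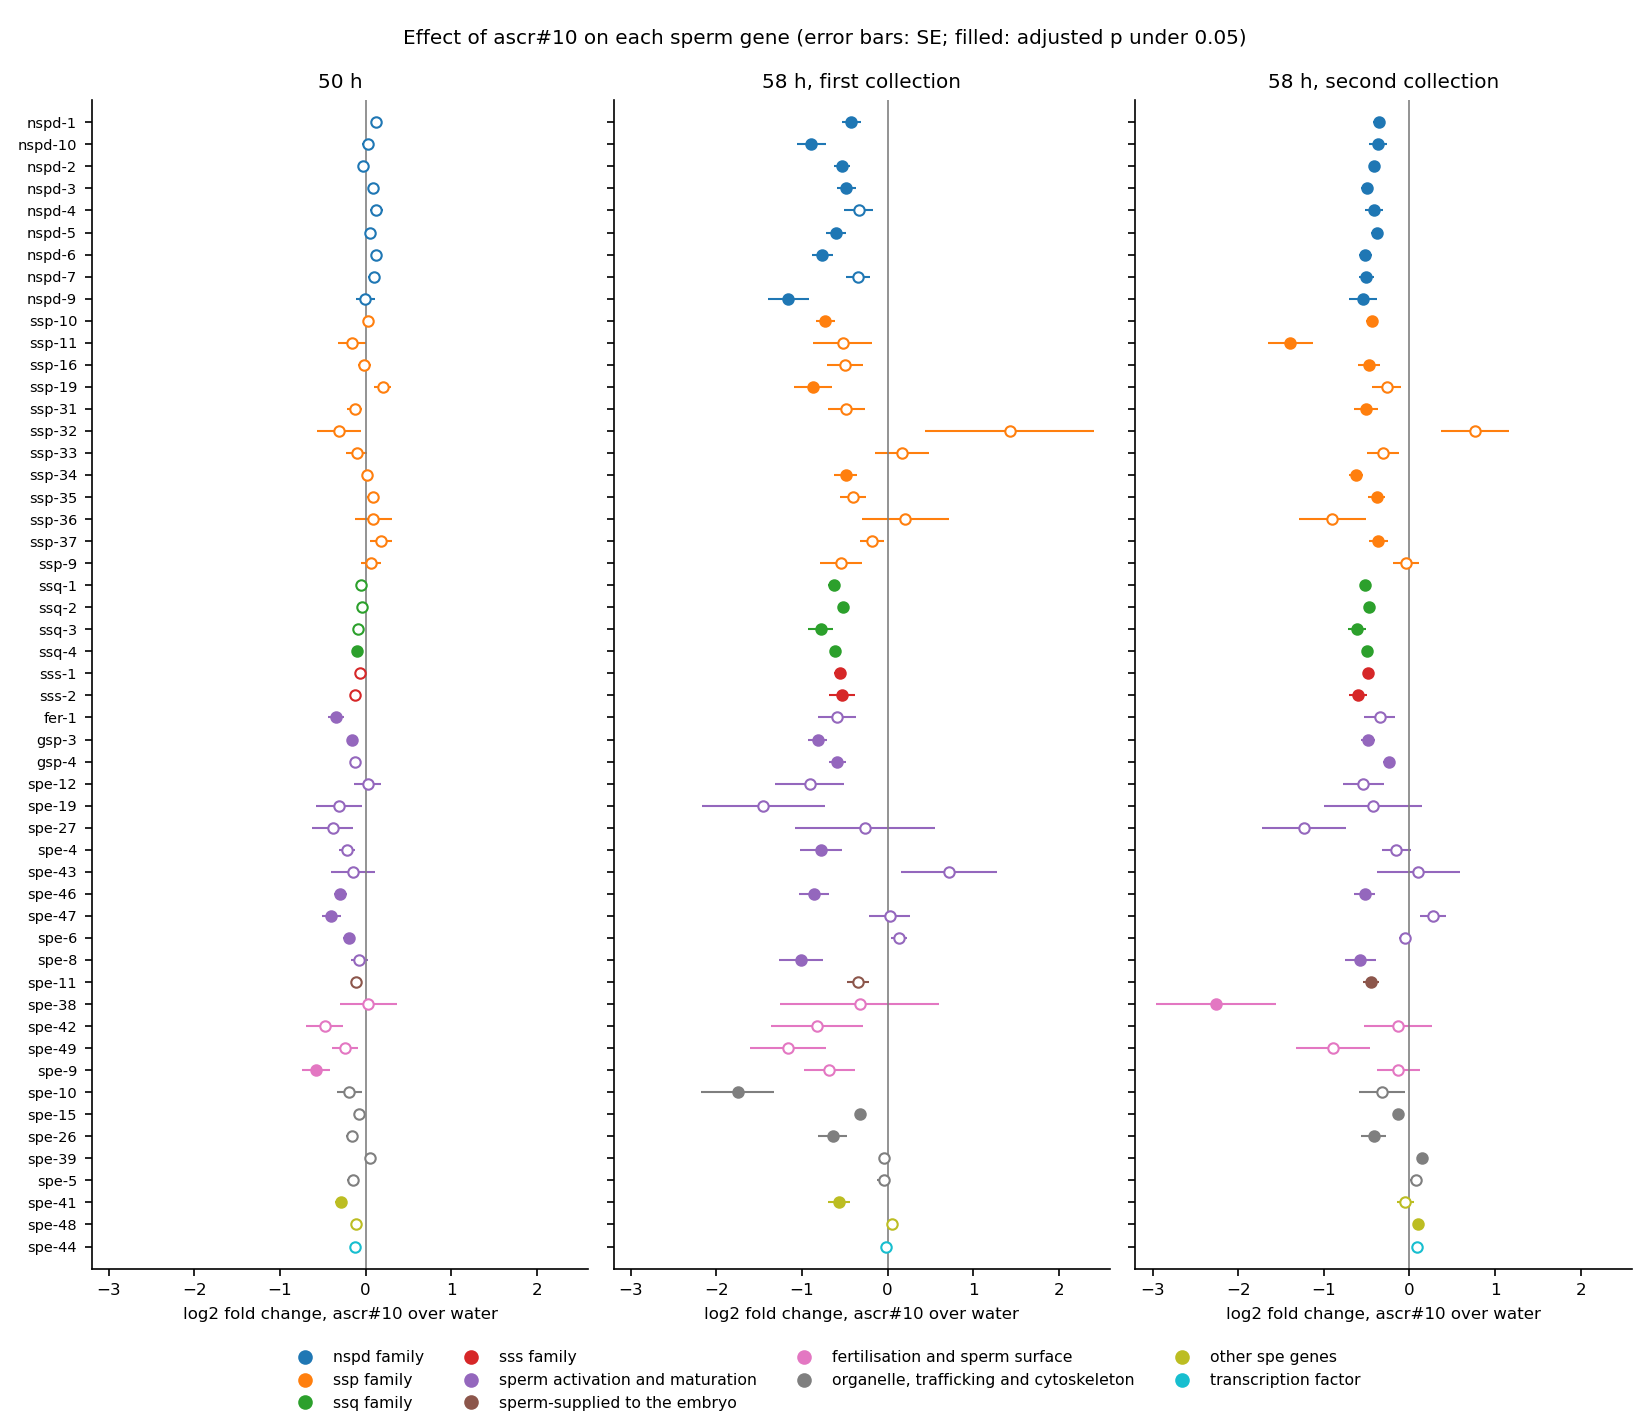
Log2 fold change of ascr#10 over water with error bars of 1 SE for 52 of the 54 tested sperm genes at 50 h and in each 58 h collection, coloured by family or role; filled points passed the adjusted threshold of 0.05. At 50 h the points lie close to 0 with 8 filled, and at 58 h most lie to the left of 0, 25 filled in collection 1 and 32 in collection 2, of which spe-39 and spe-48 lie to the right.

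spe-44 (WBGene00007732, chromosome IV from 12452063 to 12454215, as all positions here in the Ensembl release 115 annotation of WBcel235), the transcription factor of the spermatocyte programme, had 22.4, 22.4 and 22.02 CPM in the water samples and 20.4, 19.8 and 21.01 in the ascr#10 samples of 50 h. Collection 1 of 58 h had 20.5, 21.7 and 20.2 in water and 20.5, 18.7 and 22.5 in ascr#10, and collection 2 21.9, 21.7 and 20.9 in water against 22.7, 22.5 and 23.2 in ascr#10. The exposed samples lay below the water samples at 50 h, overlapped them in collection 1 of 58 h and lay above them in collection 2. None of these passed the test, with log2 fold changes of -0.13 ± 0.058 (SE, adjusted p = 0.155), -0.015 ± 0.060 (SE, adjusted p = 0.933) and 0.087 ± 0.048 (SE, adjusted p = 0.167). On TPM the value at 50 h did pass (-0.18, adjusted p = 0.03, limma with a pseudocount of 1), beside a median of -0.059 over all genes. In collection 1 of 58 h the sign turned without the filter on low counts (0.018).

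Among the genes of organelles, trafficking and the cytoskeleton, spe-39 (WBGene00004975, chromosome V from 6785451 to 6787864) was higher in ascr#10 in collection 2. Here and in what follows a value with its SE is the log2 fold change of ascr#10 over water. The CPM of spe-39 was 71.9, 71.9 and 77.7 in water and 79.01, 75.8 and 75.3 in ascr#10 at 50 h. At 58 h it was 91.97, 89.4 and 92.7 in water against 90.9, 89.5 and 85.6 in ascr#10 in collection 1, and 97.4, 96.4 and 95.4 in water against 102, 108 and 111 in ascr#10 in collection 2. The groups overlapped at 50 h and in collection 1, and in collection 2 every exposed sample lay above the water samples, with a log2 fold change of 0.15 ± 0.030 (SE, adjusted p = 8.32e-05). That call was lost with length-scaled counts (0.075) and on TPM (0.037 and 0.038 with pseudocounts of 1 and 0.1). Over both collections the value was 0.055 ± 0.023 (SE, adjusted p = 0.0717), and its sign turned with length-scaled counts and on TPM. It passed as higher with DESeq2 (adjusted p = 0.0222), without a filter on low counts (0.019), at a mean CPM of 1 or more (0.0334), and without ascr#10 replicate 3 of collection 1 (0.0341) or ascr#10 replicate 1 of collection 2 (0.00944). spe-10, a palmitoyltransferase of the membranous organelles, had 0.603, 0.342 and 0.624 CPM in water and 0.0936, 0.153 and 0.226 in ascr#10 in collection 1, and 0.455, 0.355 and 0.347 in water against 0.290, 0.246 and 0.375 in ascr#10 in collection 2. Its samples were apart in collection 1 (-1.75 ± 0.43, adjusted p = 0.00376) and overlapped in collection 2 (-0.32 ± 0.27, adjusted p = 0.393). The value of collection 1 rests on few counts, 17, 9 and 16 in water and 3, 4 and 6 in ascr#10. spe-10 reached the count minimum in 3 of the 6 groups. spe-15, a myosin VI motor that sorts material out of budding spermatids, was lower in both collections, with -0.32 ± 0.051 (SE, adjusted p = 6.76e-06) and -0.13 ± 0.041 (SE, adjusted p = 0.0122). spe-26, a kelch-repeat actin-binding protein, had -0.64 ± 0.17 (SE, adjusted p = 0.00877) and -0.42 ± 0.14 (SE, adjusted p = 0.0196). spe-5 did not pass in either collection.

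3 of the 12 tested activation and maturation genes, fer-1, gsp-3 and spe-46, were lower at both ages. fer-1 (WBGene00001414, chromosome I from 8623012 to 8631202) encodes a ferlin that fuses the membranous organelles with the sperm surface. It had 17.97, 17.8 and 18.1 CPM in water and 14.5, 13.1 and 14.7 in ascr#10 at 50 h, with no overlap and a log2 fold change of -0.35 ± 0.092 (SE, adjusted p = 0.00568). The adjusted p was 0.0608 without ascr#10 replicate 2, 0.0527 with length-scaled counts and 0.11 on log2(TPM + 0.1). At 58 h the values were 1.67, 1.75 and 1.48 in water and 0.811, 1.30 and 1.20 in ascr#10 in collection 1, and 1.17, 0.851 and 1.30 in water against 0.671, 0.701 and 1.15 in ascr#10 in collection 2. The exposed samples lay below the water samples in collection 1 and overlapped them in collection 2. Neither collection passed alone, though collection 2 did without water replicate 2 or ascr#10 replicate 3, and both together gave -0.47 ± 0.14 (SE, adjusted p = 0.0119), a call that was lost on TPM with either pseudocount and without ascr#10 replicate 1 of collection 1.

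gsp-3 (WBGene00021113, chromosome I from 4709259 to 4710712) and gsp-4 (WBGene00020187, chromosome I from 3838237 to 3839673) encode a pair of closely alike PP1 phosphatases used in sperm formation and motility. gsp-3 had 67.6, 67.4 and 67.7 CPM in water and 59.4, 61.6 and 60.5 in ascr#10 at 50 h. Its values at 58 h were 6.10, 5.20 and 6.04 in water and 3.18, 3.61 and 3.08 in ascr#10 in collection 1, and 5.27, 4.69 and 5.02 in water against 3.97, 3.11 and 3.61 in ascr#10 in collection 2. The exposed samples lay below the water samples in all 3 settings, with log2 fold changes of -0.16 ± 0.046 (SE, adjusted p = 0.0123), -0.82 ± 0.11 (SE, adjusted p = 1.41e-07) and -0.48 ± 0.080 (SE, adjusted p = 4.27e-06). The call at 50 h was lost without ascr#10 replicate 1 (adjusted p = 0.0668), on log2(TPM + 0.1) (0.083) and with 1 exposure effect common to both collections (0.0662). gsp-4 had CPM values of 67.8, 67.9 and 67.99 in water against 63.2, 63.4 and 61.02 in ascr#10 at 50 h. At 58 h it had 6.28, 6.42 and 5.81 in water against 3.90, 4.07 and 4.40 in ascr#10 in collection 1, and 5.45, 6.33 and 5.95 in water against 4.63, 5.49 and 4.99 in ascr#10 in collection 2. Its groups were apart at 50 h and in collection 1 and overlapped in collection 2, with -0.12 ± 0.044 (SE, adjusted p = 0.0643), -0.59 ± 0.10 (SE, adjusted p = 2.55e-05) and -0.23 ± 0.071 (SE, adjusted p = 0.00872). The value at 50 h passed under upper-quartile scaling (adjusted p = 0.0349), at a mean CPM of 1 or more (0.0252), on log2(TPM + 1) (0.0282) and with the 2 groups alone (0.00427). The value in collection 2 did not pass without water replicate 2 or ascr#10 replicate 1.

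spe-46 was lower throughout, with -0.30 ± 0.074 (SE, adjusted p = 0.00335) at 50 h and -0.86 ± 0.17 (SE, adjusted p = 0.000273) and -0.52 ± 0.13 (SE, adjusted p = 0.00121) at 58 h, from 22.95 ± 1.58 to 18.7 ± 0.714 CPM at 50 h, where the call was lost without water replicate 1 (adjusted p = 0.0545) and on log2(TPM + 0.1) (0.0695). spe-8, a tyrosine kinase of the activation pathway, had -0.075 ± 0.097 (SE, adjusted p = 0.693) at 50 h and -1.01 ± 0.26 (SE, adjusted p = 0.00716) and -0.57 ± 0.18 (SE, adjusted p = 0.0133) at 58 h. Its call in collection 1 was lost without ascr#10 replicate 1 (-0.75, adjusted p = 0.104). spe-4, a presenilin, had -0.78 ± 0.25 (SE, adjusted p = 0.0383) in collection 1, and -0.15 ± 0.17 (SE, adjusted p = 0.523) in collection 2. spe-47, which has a major sperm protein domain, went from 8.60, 9.42 and 9.65 CPM in water to 8.10, 6.62 and 6.29 in ascr#10 at 50 h, without overlap (-0.40 ± 0.11, adjusted p = 0.00788), and had 0.15 ± 0.14 (SE, adjusted p = 0.46) at 58 h. Its call at 50 h was lost with length-scaled counts (-0.18, adjusted p = 0.87), on TPM, and without ascr#10 replicate 2 or replicate 3. spe-6 had -0.19 ± 0.068 (SE, adjusted p = 0.0485) at 50 h and 0.042 ± 0.059 (SE, adjusted p = 0.657) at 58 h. Its call at 50 h was not among the values followed through the alternative fits. spe-12, which acts with spe-8, passed over both collections together (-0.72 ± 0.23, adjusted p = 0.0176), and spe-19, spe-27 and spe-43 passed in no exposure comparison. The latter 3 reached the count minimum at 50 h alone and had only 0 to 22 counts a sample at 58 h.

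spe-48 had 28.5, 27.6 and 26.2 CPM in water and 25.8, 26.2 and 24.1 in ascr#10 at 50 h. The values of 58 h were 33.98, 37.5 and 37.1 in water against 37.999, 35.1 and 39.6 in ascr#10 in collection 1, and 38.5, 37.7 and 40.4 in water against 44.2, 41.5 and 39.9 in ascr#10 in collection 2. The groups overlapped in every setting. Its rise in collection 2, 0.11 ± 0.041 (SE, adjusted p = 0.0459), was lost under upper-quartile scaling, without a filter on low counts, with length-scaled counts, on TPM, with the groups compared alone, and without water replicate 1 or 2 or ascr#10 replicate 1 or 2.

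Of the genes for fertilisation, spe-9 (WBGene00004963, chromosome I from 11582743 to 11586069), a sperm surface protein with EGF repeats that is needed to enter the oocyte, had the largest called fall at 50 h. Its CPM was 5.22, 5.05 and 4.68 in water and 3.83, 3.40 and 2.79 in ascr#10. All exposed samples lay below the water samples, and the log2 fold change was -0.58 ± 0.16 (SE, adjusted p = 0.0106). The call was lost without water replicate 1 (adjusted p = 0.0544), without ascr#10 replicate 3 (0.107), with length-scaled counts (0.0651) and on log2(TPM + 0.1) (0.114). At 58 h spe-9 had 0.851, 0.798 and 1.44 CPM in water and 0.562, 0.959 and 0.414 in ascr#10 in collection 1, and 0.485, 0.610 and 0.528 in water against 0.544, 0.322 and 0.599 in ascr#10 in collection 2. The groups overlapped in both collections, with -0.68 ± 0.29 (SE, adjusted p = 0.17) and -0.13 ± 0.25 (SE, adjusted p = 0.741), the latter with a sign that turned on length-scaled counts (0.0058). spe-49, a multi-pass membrane protein related to spe-42, had counts of 9, 9 and 12 in water and 4, 6 and 4 in ascr#10 in collection 1. In collection 2 it had 13, 11 and 8 counts in water and 6, 5 and 4 in ascr#10, apart in each, and -1.03 ± 0.31 (SE, adjusted p = 0.011) over both. That call was lost on log2(TPM + 1). spe-42 passed in no exposure comparison and had a mean below 0.2 TPM in every group of 58 h. spe-41, a calcium channel of the sperm surface also used at fertilisation, had -0.29 ± 0.070 (SE, adjusted p = 0.00295) at 50 h, -0.57 ± 0.13 (SE, adjusted p = 0.00137) in collection 1 of 58 h, and -0.046 ± 0.095 (SE, adjusted p = 0.754) in collection 2. Its call at 50 h was lost on log2(TPM + 0.1) (adjusted p = 0.0662).

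spe-11 (WBGene00004965, chromosome I from 5330578 to 5332169) supplies a factor that the sperm brings to the egg and that the embryo needs for its eggshell. It had 38.1, 36.5 and 36.7 CPM in water and 33.3, 34.2 and 35.1 in ascr#10 at 50 h. At 58 h the values were 3.58, 3.65 and 3.39 in water against 2.87, 2.45 and 3.01 in ascr#10 in collection 1, and 3.29, 3.43 and 2.89 in water against 2.43, 2.24 and 2.37 in ascr#10 in collection 2. The exposed samples lay below the water samples in all 3 settings. The value at 50 h (-0.12 ± 0.055, adjusted p = 0.167) and that of collection 1 (-0.35 ± 0.13, adjusted p = 0.0799) did not pass, and that of collection 2 did (-0.45 ± 0.095, adjusted p = 0.000185). On TPM the value of collection 1 passed, with adjusted p-values of 0.00519 and 0.00462 at pseudocounts of 1 and 0.1.

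Among the ssq and sss genes, ssq-4 (WBGene00006053, chromosome IV from 5016479 to 5017766) had 309, 312 and 296 CPM in water and 283, 286 and 285 in ascr#10 at 50 h. By 58 h it was at 29.1, 28.3 and 30.4 in water against 18.8, 18.3 and 20.0 in ascr#10 in collection 1, and 28.8, 28.9 and 27.1 in water against 20.2, 20.2 and 19.9 in ascr#10 in collection 2. No exposed sample reached the lowest water sample in any setting, with log2 fold changes of -0.10 ± 0.026 (SE, adjusted p = 0.00505), -0.62 ± 0.047 (SE, adjusted p = 2.64e-15) and -0.49 ± 0.036 (SE, adjusted p = 4.56e-16). The small value at 50 h was lost without water replicate 2 (adjusted p = 0.0602). ssq-1 (WBGene00006050, chromosome IV from 9852550 to 9853609) had 184, 176 and 166 CPM in water and 166, 169.6 and 171 in ascr#10 at 50 h, which overlapped. At 58 h it had 17.98, 20.3 and 19.1 in water against 12.4, 12.8 and 11.9 in ascr#10 in collection 1, and 22.0, 23.3 and 20.6 in water against 16.5, 14.4 and 15.2 in ascr#10 in collection 2, with no overlap in either. Its log2 fold changes were -0.057 ± 0.035 (SE, adjusted p = 0.334), -0.63 ± 0.068 (SE, adjusted p = 2.80e-09) and -0.52 ± 0.048 (SE, adjusted p = 2.24e-11). sss-1 (WBGene00006056, chromosome IV from 9892739 to 9893749) had 124, 124 and 132 CPM in water and 120.3, 117 and 126 in ascr#10 at 50 h, again overlapping. At 58 h collection 1 had 14.3, 13.6 and 13.9 in water against 9.61, 8.86 and 9.89 in ascr#10, and collection 2 16.9, 17.8 and 16.3 in water against 12.01, 11.9 and 12.4 in ascr#10. Both collections were apart, with -0.56 ± 0.069 (SE, adjusted p = 1.28e-08) and -0.49 ± 0.047 (SE, adjusted p = 6.04e-12), while 50 h gave -0.060 ± 0.034 (SE, adjusted p = 0.273).

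Among the ssp genes, ssp-10 (WBGene00006039, chromosome IV from 9850702 to 9851031) had 53.95, 53.9 and 56.1 CPM in water and 56.6, 53.6 and 57.1 in ascr#10 at 50 h. Its values at 58 h were 5.64, 5.55 and 5.65 in water against 3.90, 3.03 and 3.16 in ascr#10 in collection 1, and 6.86, 6.58 and 7.60 in water against 5.01, 4.94 and 5.54 in ascr#10 in collection 2. The groups overlapped at 50 h (0.030 ± 0.048, adjusted p = 0.754, with a sign that turned on TPM) and were apart at 58 h (-0.72 ± 0.11, adjusted p = 2.37e-06 and -0.43 ± 0.071, adjusted p = 3.69e-06). On TPM ssp-10 had -0.041 at 50 h with either pseudocount, while the medians of all genes were -0.059 and -0.071. ssp-16 (WBGene00006044, chromosome I from 6102067 to 6102396) had CPM values of 21.3, 23.8 and 23.9 in water against 21.7, 23.6 and 22.9 in ascr#10 at 50 h. The values of 58 h were 1.53, 1.82 and 1.25 in water against 1.28, 1.07 and 0.865 in ascr#10 in collection 1, and 2.24, 2.45 and 2.36 in water against 1.29, 1.78 and 1.98 in ascr#10 in collection 2. The groups were apart in collection 2 and overlapped in the others, with -0.016 ± 0.074 (SE, adjusted p = 0.933), -0.50 ± 0.21 (SE, adjusted p = 0.162) and -0.47 ± 0.12 (SE, adjusted p = 0.00273). The call in collection 2 was lost without ascr#10 replicate 1 (adjusted p = 0.0544). ssp-11 had 4.36, 9.42 and 4.68 CPM in water and 4.43, 4.22 and 4.10 in ascr#10 in collection 1, where 1 water sample was high and the groups overlapped. In collection 2 it had 6.39, 8.59 and 7.51 in water against 2.03, 3.16 and 3.33 in ascr#10, apart, with -1.39 ± 0.26 (SE, adjusted p = 0.00149). ssp-32 alone had a higher fitted level in ascr#10 in both collections among ssp genes, at 0 to 22 counts a sample and adjusted p-values of 0.468 and 0.136.

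The nspd genes had the highest summed TPM of the families. nspd-1 (WBGene00022754, chromosome I from 6097579 to 6097791) had 52.5, 49.9 and 52.8 CPM in water and 53.2, 60.3 and 55.7 in ascr#10 at 50 h, where every exposed sample was above the water samples without passing the test (0.13 ± 0.052, adjusted p = 0.102), though it did with the 2 groups alone (adjusted p = 0.0115). By 58 h it was at 6.42, 4.94 and 6.98 in water against 4.37, 4.41 and 4.92 in ascr#10 in collection 1, and 8.95, 9.89 and 9.28 in water against 6.95, 7.37 and 7.69 in ascr#10 in collection 2. The order was then the other way, with the exposed samples below the water samples, closely in collection 1, and -0.42 ± 0.11 (SE, adjusted p = 0.0076) and -0.35 ± 0.069 (SE, adjusted p = 6.76e-05). The call in collection 1 was lost without water replicate 1, water replicate 3 or ascr#10 replicate 1. nspd-9 had the largest value of the family, -1.16 ± 0.24 (SE, adjusted p = 0.00054) in collection 1 and -0.54 ± 0.17 (SE, adjusted p = 0.00911) in collection 2. nspd-4 and nspd-7 passed in collection 2 alone (-0.42 and -0.50, after -0.34 and -0.34 in collection 1).

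**Figure D4:**
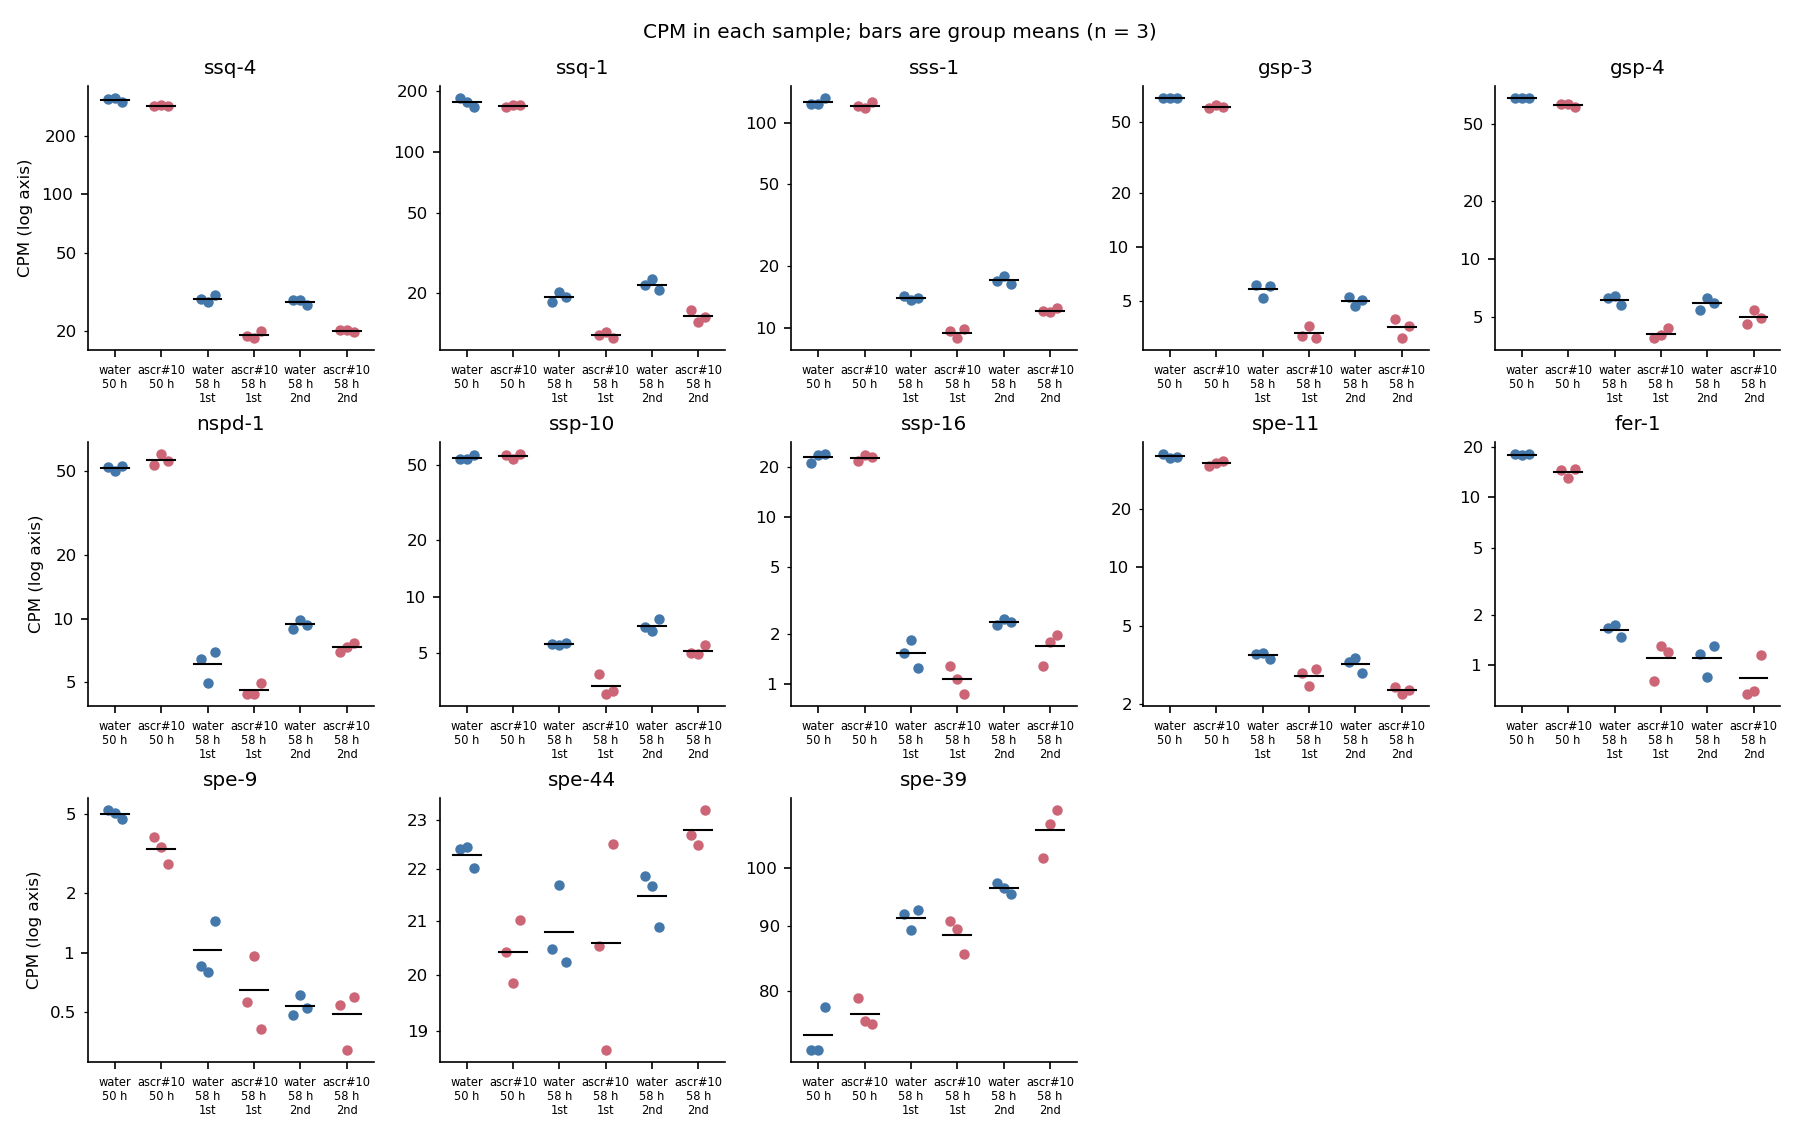
CPM (log axis) of 13 sperm genes in each of the 18 samples, by exposure, age and collection (1st, 2nd); points are samples and bars are means of 3. In 11 panels the level drops from 50 h to 58 h, with exposed samples mostly below water samples at 58 h, while spe-44 stays between 18 and 24 CPM and spe-39 goes up.

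Whether the effect of ascr#10 changed with age was tested directly in collection 1. 20 of 54 genes had a more negative effect at 58 h than at 50 h and 0 a less negative one, against 4.74% of all genes called, 3.8% and 0.931%. By unadjusted p edgeR gave 30 and 2, and DESeq2 called 20 and 0. The sperm genes had a median difference of -0.47 against -0.020 over all genes. The 20 were 7 of 9 nspd genes, all 4 ssq genes, 3 of 12 ssp genes, sss-1, gsp-3, gsp-4, spe-8, spe-10 and spe-15. spe-10 had the largest difference, -1.56 ± 0.45 (SE, adjusted p = 0.0307), which did not pass without any 1 of 6 of the 12 samples or on TPM with either pseudocount. nspd-9 followed with -1.16 ± 0.27 (SE, adjusted p = 0.00314) and ssp-19 with -1.07 ± 0.25 (SE, adjusted p = 0.00276). ssq-4 had -0.52 ± 0.054 (SE, adjusted p = 2.29e-10). For the genes called at 50 h, the difference did not pass in spe-9 (-0.098 ± 0.33, adjusted p = 0.935), fer-1 (-0.24 ± 0.24, adjusted p = 0.714), spe-41 (-0.28 ± 0.15, adjusted p = 0.34), spe-46 (-0.56 ± 0.19, adjusted p = 0.0716), spe-47 (0.42 ± 0.26, adjusted p = 0.458) or spe-6 (0.33 ± 0.12, adjusted p = 0.106). The sign of spe-9 turned on log2(TPM + 1) and that of fer-1 on TPM with either pseudocount.

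Between the 2 collections of 58 h the effect differed for 2 of 54 genes, 3.7%, both less negative or more positive in collection 2, against 11.1% of all genes called, 4.34% higher and 6.8% lower. By unadjusted p 12 were higher and 0 lower, and DESeq2 called 4 and 0. The 2 were spe-39, with a difference of 0.19 ± 0.046 (SE, adjusted p = 0.00214), and spe-41, with 0.52 ± 0.16 (SE, adjusted p = 0.0219). The median difference was 0.12, and 0.022 over all genes. Both calls were lost on TPM, that of spe-39 with length-scaled counts, and that of spe-41 without water replicate 2 or ascr#10 replicate 3 of collection 1 or ascr#10 replicate 1 of collection 2. Without water replicate 3 of collection 1 the count was 4.

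Over the 54 genes the Spearman correlation of summed exon length with the log2 fold change was -0.617 at 50 h, and -0.056 over 15933 other tested genes. It was -0.587 on log2(TPM + 1), -0.629 on length-scaled counts and -0.606 without the sample rich in ribosomal RNA. At 58 h it was 0.154 over both collections, -0.0714 in collection 1 and 0.338 in collection 2. These are descriptions, since genes of 1 family share length and sequence: the 12 nspd genes have 136 to 276 bases of exon, the ssp genes 324 to 451, the ssq genes 963 to 1316 and the fertilisation genes 655 to 2546. The 22 tested genes under 500 bases had a median log2 fold change of 0.038 at 50 h and -0.49 at 58 h, and the 32 longer ones -0.14 and -0.47. Other genes had medians of 0.036 and -0.043 under 500 bases, and -0.0046 and 0.0031 above.

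**Figure D5:**
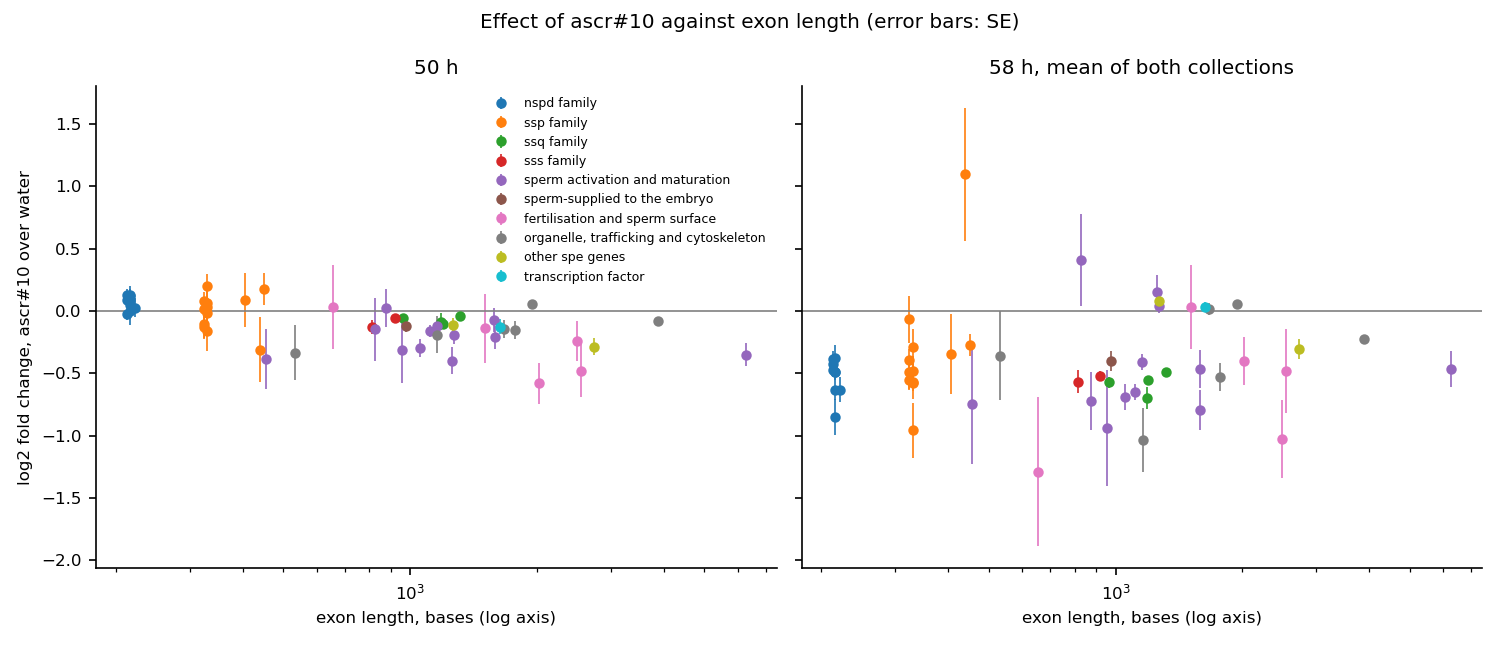
Log2 fold change of ascr#10 over water (error bars of 1 SE) against summed exon length in bases (log axis) for the 54 tested sperm genes, at 50 h and at 58 h as the mean of both collections, coloured by family or role. At 50 h the short nspd and ssp genes lie around 0 and most longer genes below it. At 58 h most short and most long genes lie below 0, while ssp-32, spe-47, spe-39 and spe-6 are among those above it.

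Of the 58 genes, 22 lie on chromosome I, 22 on IV, 9 on V, 3 on III, 2 on II and 0 on X, where 14.4%, 16.4%, 25%, 13.2%, 17.3% and 13.7% of the annotated protein-coding genes lie. 17 of the 58 have another of the set within 20 kb. ssp-9 (4994371 to 4994700), ssq-2 (4996142 to 4997559), ssp-11 (4999485 to 4999814) and ssq-4 (5016479 to 5017766) stand together on chromosome IV. Their log2 fold changes at 58 h were -0.29, -0.49, -0.96 and -0.56, of which that of ssp-9 did not pass (adjusted p = 0.171). A second stretch of IV holds nspd-2 (9844060 to 9844272), ssp-10, ssq-1, sss-1 and ssp-32 (9895388 to 9896136), with -0.47, -0.58, -0.57, -0.52 and 1.10, the last not passing (adjusted p = 0.125). 8 of the 58 overlap a gene on the opposite strand, among them spe-9, spe-15, spe-26, spe-49 and ssq-4. The library kit marks strand, but the sources used here do not say whether counting used it, so reads of such partners may be included.

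Of the 58 genes, 16 have more than 1 listed transcript and 8 have more than 1 with a mean of at least 1 TPM. In spe-15 the share of the first transcript (F47G6.4a.1) in the gene's TPM was 78.9% ± 4.27 in water at 50 h (SD, n = 3), 65.8% ± 8.11 at 58 h in collection 1 and 35.7% ± 1.91 in collection 2. The transcript F47G6.4c.1 had 3.87% ± 6.69, 0% and 37.4% ± 7.48. In ascr#10 the first had 83.8% ± 2.29, 57.4% ± 10.6 and 35.2% ± 1.26, and F47G6.4c.1 had 1.48% ± 2.56, 27.9% ± 24.6 and 49.7% ± 5.29. spe-48 had 65.1% to 70.4% of its TPM in its main transcript over the 6 groups. Shares of nspd-3, nspd-4 and ssp-11 had SDs of up to 57.7 percentage points.

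Among 17 tested genes linked to sperm outside the naming rule, 4 were lower and 0 higher at 50 h, 10 lower and 1 higher at 58 h over both collections, and 13 lower and 3 higher with age in water. Over all genes, 5.2% were lower and 7.7% higher at 50 h, and 13.7% and 11.8% at 58 h over both collections. With age in water 42.4% of all genes were lower and 37.5% higher. spch-1, which encodes a sperm chromatin protein, had log2 fold changes of -0.21 (adjusted p = 0.000106) at 50 h and -0.54 (adjusted p = 1.05e-10) at 58 h. comp-1, a kinase-like gene of sperm competition, had -0.29 (adjusted p = 0.0196) and -0.56 (adjusted p = 0.00333), and peel-1, a sperm-delivered toxin, -0.16 (adjusted p = 0.587) and -1.38 (adjusted p = 0.00226). The gene higher at 58 h was zipt-7.1, a zinc transporter of sperm activation (0.13, adjusted p = 6.98e-06). Of 33 tested msp genes 1 was lower at 50 h, with a median of -0.022, and 26 at 58 h, with a median of -0.52, beside -0.10 and -0.48 for the 54. Of 7 regulators of germ cell fate, such as fog-2 and fem-3, 0 were lower and 2 higher at 58 h, with a median of 0.045.

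Genes of other cells moved as well. Of 17 oocyte and maternal genes, 9 were higher and 0 lower in ascr#10 at 50 h (median 0.075), 0 passed in collection 1 of 58 h and 13 were higher in collection 2 (median 0.12). Over all genes 7.7% were higher at 50 h, 2.84% in collection 1 of 58 h and 15.3% in collection 2. With age in water 37.5% of all genes were higher and 42.4% lower. With age all 17 were higher in water, and their summed level lay at 3641 to 3702 TPM at 50 h and at 6542 to 6728 at 58 h. All 6 tested embryonic genes were higher with age in water, where they summed to 1.37 to 2.19 TPM at 50 h and 17.9 to 18.2 at 58 h, and 0 of 6 passed in any exposure comparison. Of 6 genes of the spermatheca and gonad sheath, 5 were lower with age in water. With exposure over both collections 0 of them passed, against 25.5% of all genes. Of 9 genes of male somatic cells, 4 were tested: cwp-4, try-5, plg-1 and swm-1. lov-1, pkd-2, cwp-1, cwp-2 and cwp-3, which mark male neurons, were below 0.5 TPM in every group mean, and cwp-1 and cwp-3 were listed at 0 in water at 50 h. The summed level of the 9 was 50.3 to 56.03 TPM in water and 51.2 to 54.4 in ascr#10 at 50 h, 38.6 to 45.7 and 32.2 to 39.5 in collection 1 of 58 h, and 51.98 to 56.3 and 36.7 to 43.7 in collection 2. Nearly all of it was swm-1, a protease inhibitor that restrains sperm activation, with -0.28 (adjusted p = 0.000325) at 58 h. The part of these other cells in the sperm gene results was not tested.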

How the data were processed

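Libraries were made from total RNA of whole worms with a directional kit, per the labels' protocols. The names of the files the authors deposited give salmon as the quantifier. The deposited gene tables hold estimated counts, of which 95.2% of values were whole, and the same counts scaled by transcript length. They also hold TPM values, which the authors deposited per gene and per transcript. The salmon version and settings, the build, the annotation and the use of strand in counting are not stated in the labels or headers.

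Estimated counts were rounded and analysed with edgeR 4.0.16 (R 4.3.3): filterByExpr with a minimum count of 10 over 6 groups of 3, TMM scaling, and a robust quasi-likelihood fit of 6 group means over 18 samples. Contrasts were tested and adjusted over 16006 genes by Benjamini-Hochberg at 0.05. The SE is the log2 fold change divided by the square root of F. Alternatives were DESeq2 1.42.0, upper-quartile scaling, other filters, length-scaled counts, limma 3.58.1 on log2(TPM) with pseudocounts of 1 and 0.1, a replicate block, the compared groups alone, a common effect of exposure in both collections, and leaving out each sample. Samples with the same replicate number did not deviate together (correlations of -0.0456 to 0.0349), so the numbers were not taken as pairs.

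The genes and lists were chosen with earlier results of these data known. Named genes were 13 given in every sample, and for each comparison the 5 largest called values in each direction and any called against the majority. Positions come from the Ensembl annotation (release 115) of WBcel235. Intervals cover counting error only. Single values of 2 of the genes are not reported here, and counts and sums include them.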

Additional observations from a re-analysis of the deposited data

Results flagged for a closer look

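The effect of ascr#10 differed between 58 h and 50 h in the first collection, by the test of the difference itself, for 20 sperm genes, and each effect was more negative at 58 h. On the log2 scale the differences were -0.55 for nspd-1, -0.50 for nspd-2, -0.57 for nspd-3, -0.65 for nspd-5, -0.88 for nspd-6, -1.16 for nspd-9 and -0.92 for nspd-10. The ssq genes had -0.57 for ssq-1, -0.48 for ssq-2, -0.70 for ssq-3 and -0.52 for ssq-4, and sss-1 had -0.50. The ssp genes had -0.75 for ssp-10, -1.07 for ssp-19 and -0.50 for ssp-34. The phosphatases had -0.66 for gsp-3 and -0.47 for gsp-4. The kinase spe-8 had -0.94, the palmitoyltransferase spe-10 -1.56 and the myosin spe-15 -0.24. The difference of spe-8 did not pass without any 1 of 8 of the 12 samples, and that of spe-10 without any 1 of 6. On TPM 14 genes passed with a pseudocount of 1 and 15 with 0.1, in place of 20. The differences of spe-8, spe-10, nspd-10 and nspd-1 did not pass with either pseudocount, and that of gsp-4 did not with 1.

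The effect at 58 h differed between the collections, by the same kind of test, for spe-39 (0.195) and spe-41 (0.524), both higher in the second.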

How the results depend on the processing

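Of 98 called values of named genes, 1582 of 1661 alternatives stayed on their side of the threshold, 79 lost the call and 0 changed sign. This pool includes the large changes with age, which lost no call. At 50 h the calls of spe-9, spe-47, fer-1, spe-46, spe-41, gsp-3 and ssq-4 were each lost in 1 or more alternatives. Of 29 values not called, 456 of 501 alternatives stayed uncalled with the same sign, 21 gained a call and 24 changed sign. At 50 h, 4 genes passed with length-scaled counts, 14 on log2(TPM + 1), 4 on log2(TPM + 0.1) and 15, of which 2 higher, with the groups compared alone, against 8. Leaving out a sample gave 5 to 8. For the difference between collections, DESeq2 gave 4, a mean CPM of 1 or more 5, and TPM 0 with either pseudocount, against 2, and leaving out a sample gave 2 to 4. Leaving out a sample gave 33 to 38 genes for 58 h over both collections, 20 to 24 for the first, 28 to 33 for the second and 15 to 20 for the difference between ages. A replicate block gave 7 genes at 50 h, 36 at 58 h, 25 and 32 in the 2 collections, 52 in each age comparison, 20 for the difference between ages and 3 for that between collections.

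Values that did not pass changed sign as follows, and the cause was not tested. ssp-10 at 50 h had -0.04071 and -0.04086 on TPM, where the medians of all genes were -0.059 and -0.071. spe-39 over both collections had -0.009151 with length-scaled counts and -0.03761 and -0.03822 on TPM. spe-44 in the first collection had 0.01832 without a filter, and with age in ascr#10 -0.04886 under upper-quartile scaling and -0.02631 at a mean CPM of 1 or more. spe-9 in the second collection had 0.005836 with length-scaled counts. For the difference between ages, spe-9 had 0.1761 on log2(TPM + 1), and fer-1 0.1892 and 0.009951 on TPM with pseudocounts of 1 and 0.1. Leaving out samples gave -0.06796 to 0.01677 for ssp-16 at 50 h, -0.08067 to 0.04618 for spe-44 and -0.3161 to 0.08055 for spe-9 in the first and second collection, -0.05546 to 0.0714 for spe-44 with age in ascr#10 and -0.4666 to 0.2118 for spe-9 between ages.

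Over all genes at 58 h, 1889 were higher and 2194 lower, and 889 and 2417 under upper-quartile scaling, 2802 and 1907 by DESeq2 and 288 and 2091 on log2(TPM + 1). At 50 h the split was 1233 and 832, and 919 and 1011 under upper-quartile scaling and 451 and 2179 on log2(TPM + 1). Depth limits the fertilisation genes at 58 h, where spe-38 and spe-42 had few counts. It also limits spe-10, with 3 to 17 counts a sample in the first collection of 58 h.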
